A study of Mus musculus with 24 samples.

Results

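Splicing factors are the proteins that decide where introns are removed from a transcript. The genes described here were chosen by symbol: the SR protein genes (Srsf and Tra2a, Tra2b), the hnRNP genes (Hnrnp), the genes for Sm and other snRNP proteins (Snrp), and the SF3A, SF3B and U2AF genes. The table held 56 such genes among 12091 in all: 12 for SR proteins, 20 for hnRNPs, 12 for Sm and snRNP proteins, 9 for SF3A and SF3B subunits and 3 for U2AF. SR proteins bind exonic enhancers and favor inclusion of the exon, and hnRNPs often oppose them at silencers or in introns. Sm proteins form the ring on which the spliceosomal snRNPs are built, U2AF reads the end of the intron, and the SF3 complexes hold the U2 snRNP at the branch point. Most of these genes are abundant in every dividing cell, including breast cancer cells, and several regulate their own transcripts by splicing in poison exons.

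The study asked by RNA sequencing what loss or blockade of the secreted factor pleiotrophin (PTN, gene Ptn) changes in mouse breast cancer, in 4 experiments of 6 samples each. In the first, 4T1 cells, a triple-negative line from BALB/c mice, grew in the mammary fat pad of female BALB/c mice implanted at 8 wk of age; mice received the anti-PTN antibody 3B10 at 15 mg/kg or the control IgG C44 from day 8, and tumors were taken on day 25. In the second, FVB/N mice carrying MMTV-PyMT, a viral oncogene driven by a mammary promoter, received 3B10 at 15 mg/kg or C44 from 8 wk of age, with harvest at 12 wk. In the others, cultured E0771 cells and E0771-LG cells, a derivative taken from a lung metastasis, both of C57BL/6 origin, carried an shRNA against Ptn (shPTN) or a control shRNA against EGFP (shCtrl) and were kept in puromycin. Each group had 3 samples. A single shRNA construct was used, so its effect on Ptn, any effect on other transcripts and differences between separately selected populations cannot be told apart, and while the study calls the 3 samples of a group biological replicates, it does not describe how the cultures of a cell group were separated. The values were log2 expression, and for the PyMT tumors and the cell lines they followed log2 CPM (reads scaled to library size), with 15.63 M (E0771 shPTN replicate 3) to 21.12 M (E0771-LG shPTN replicate 1) reads per sample. All PyMT C44 libraries, at 18.76 to 19.25 M reads, were larger than the PyMT 3B10 libraries, at 16.26 to 18.44 M. The 4T1 values lie on another scale, with unknown depth, and their levels were not compared with those of the other samples.

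The knockdown target was checked first. Ptn was at 2.90, 2.18 and 2.28 log2 CPM in E0771 shCtrl and at −0.63, 0.25 and 0.53 in E0771 shPTN. In E0771-LG it was at 3.65, 4.51 and 3.74 in shCtrl and at 1.42, 0.98 and 1.38 in shPTN. In each line the highest shPTN value was lower than the lowest shCtrl value. An antibody does not have to change the transcript, and Ptn overlapped between treatments in 4T1 tumors (−0.19, −0.65 and −0.12 with C44, −0.76, 0.86 and 0.37 with 3B10) and in PyMT tumors (2.80, 2.73 and 3.42 with C44, 3.28, 2.95 and 4.22 with 3B10).

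Of the 56 genes, 55 passed the filter on low values in PyMT tumors and 54 in each cell line, while all 56 passed in 4T1 tumors. U2af1l4, a U2AF small-subunit relative, failed in PyMT tumors and both lines. Snrpn, an imprinted relative of Snrpb that is best known from brain, failed in both lines, where it lay between −5.40 and −4.97 in every sample but E0771 shPTN replicate 2, at −2. Both share transcript sequence with annotated read-through or bicistronic neighbors (Snurf and Gm38393 for Snrpn, Gm49396 for U2af1l4), so their values are uncertain. In levels per length of the main transcript, Hnrnpa2b1 ranked highest in E0771 shCtrl cells, at 619 ± 67.2 CPM per kb (SD, n = 3), followed by Hnrnpa1 at 466 ± 40.8, Hnrnpk at 305 ± 19.5 and Snrpb at 293 ± 51.4. Hnrnpk and Snrpb differed by less than their spread. The same genes were among the top 5 in E0771-LG shCtrl cells, with Hnrnpa2b1 at 658 ± 50.5 and Hnrnpa1 at 642 ± 62.4 CPM per kb. Srsf4, Hnrnph3 and Hnrnpr were the lowest of the tested genes there, at 8.15 ± 0.962, 9.35 ± 1.65 and 5.72 ± 0.488 CPM per kb. The rank of Hnrnpr rests on a main transcript of 21452 nt. Its mean of 6.94 log2 CPM there, not divided by length, was above that of Snrpg (6.08). Hnrnpa1 and Hnrnpa3 have processed pseudogenes, and reads of such copies may be counted with or lost from them.

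**Figure D1:**
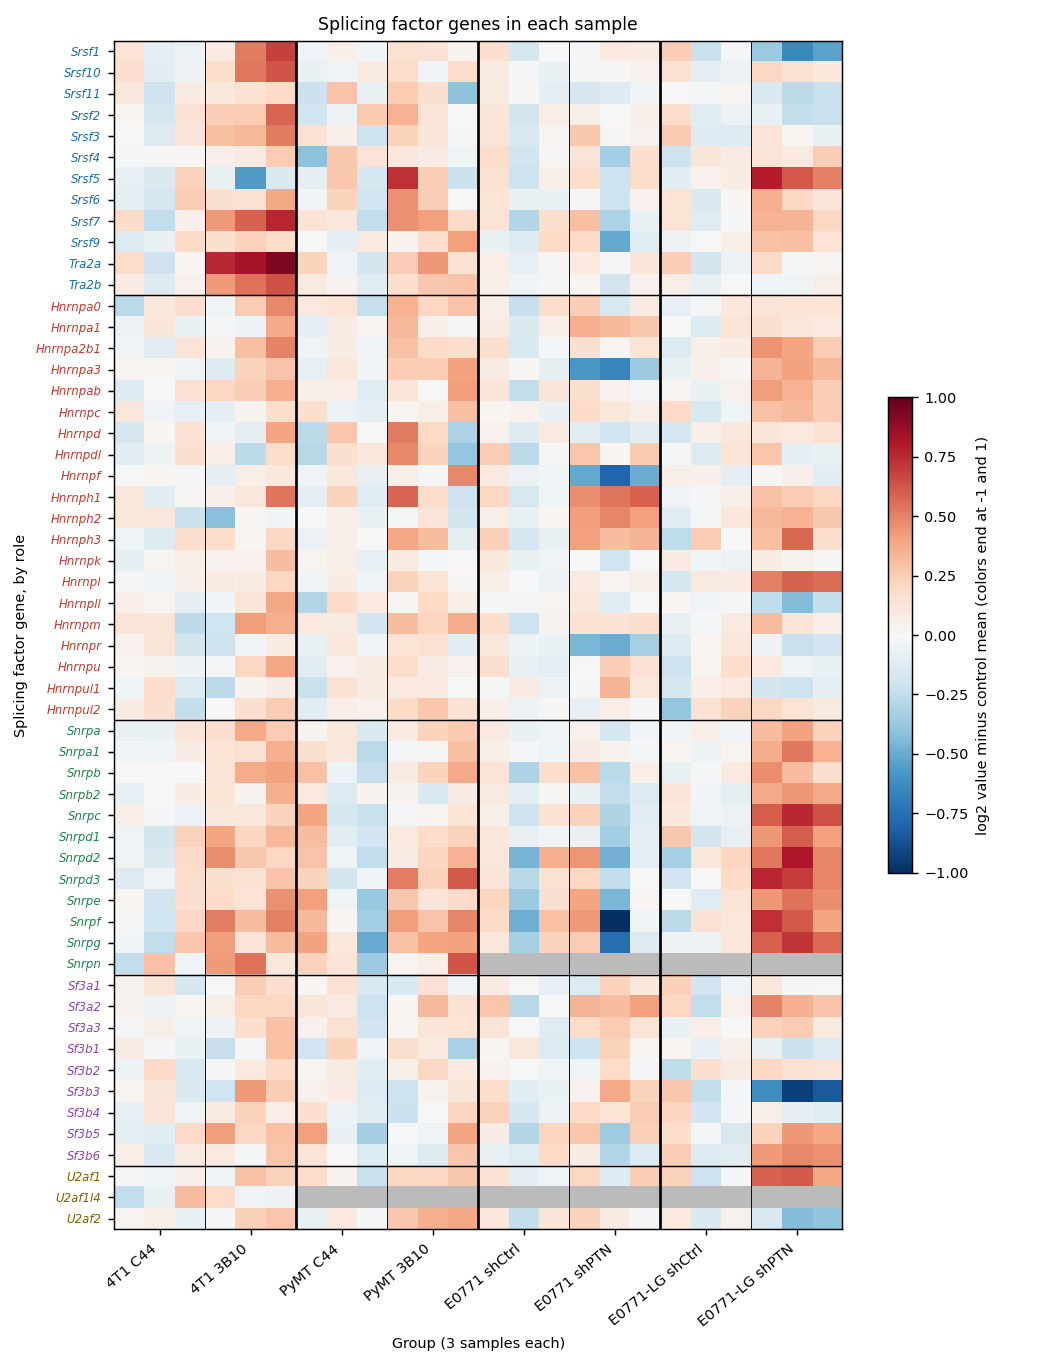
Each row is a splicing factor gene, grouped by role and colored by role in its label, and each column is a sample, 3 per group. Color gives the log2 value minus the mean of the control group of the same experiment; gray marks genes that failed the filter. The block of Sm and snRNP genes is red in all 3 E0771-LG shPTN samples, while in E0771 the replicate 2 samples of both groups are blue for many of these genes.

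In E0771 cells, the splicing factor genes called with Ptn knockdown were all hnRNP genes. With limma, 6 of 54 genes passed an adjusted p under 0.05, 3 higher and 3 lower with knockdown, against 20.6% of all 10394 genes tested (8.89% higher, 11.7% lower). That share of 11.1% is below the background, and the median change of the 54 genes, 0.03, was close to that of all genes, −0.03. They are 6 of 20 hnRNP genes (30%). The classes were not tested against each other, and those without a call are small. No SR, Sm, SF3 or U2AF gene passed with limma; at an unadjusted p under 0.05 there were 0, 0, 1 and 0 of them, and 8 of all 54 (14.8%) against 34.1% of all genes. The groups did not overlap for 9 of the 54 (16.7%) against 39.4% of all genes.

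Among the genes that rose were the close relatives Hnrnph1 and Hnrnph2, whose proteins bind runs of G. Hnrnph1 was at 8.01, 7.64 and 7.76 log2 CPM in shCtrl and at 8.27, 8.34 and 8.39 in shPTN, and Hnrnph2 was at 7.01, 6.88 and 6.97 against 7.37, 7.44 and 7.36. The groups did not overlap for either gene. Hnrnph1 was higher by 0.53 ± 0.10 (SE; limma adjusted p = 0.00449) and Hnrnph2 by 0.44 ± 0.08 (adjusted p = 0.00371). Hnrnpa1, which binds exonic silencers, was at 9.88, 9.65 and 9.86 in shCtrl and at 10.16, 10.12 and 10.07 in shPTN. All shPTN samples were above all shCtrl samples, by 0.32 ± 0.09 on average (adjusted p = 0.0254), but the call was lost without shCtrl replicate 2 (adjusted p = 0.11), shCtrl replicate 3 (0.0666) or shPTN replicate 3 (0.0817), under quantile normalization (0.20, 0.117), without the mean-variance trend (0.0638) and in a fit of all 24 samples (0.0989).

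The genes that fell included Hnrnpf, another G-run binder of the same subfamily as Hnrnph1. Hnrnpf was at 8.77, 8.62 and 8.65 log2 CPM in shCtrl and at 8.17, 7.89 and 8.18 in shPTN, lower by −0.60 ± 0.10 (limma adjusted p = 0.00193). Members of this subfamily thus moved in opposite directions in the same cells, with no overlap between groups for any of the 3. Hnrnpa3, an A/B-type hnRNP, was at 6.31, 6.24 and 6.14 in shCtrl and at 5.65, 5.57 and 5.87 in shPTN (−0.53 ± 0.11, adjusted p = 0.00612). Hnrnpr, a relative of the RNA-binding protein SYNCRIP, was at 7.31, 7.14 and 7.13 against 6.74, 6.70 and 6.86 (−0.43 ± 0.09, adjusted p = 0.00716). Neither gene had a shPTN value that reached the shCtrl range. Hnrnpr has a main transcript of 21452 nt, and with shared effects of transcript length and GC content removed it was at −0.25 and no longer passed (0.197), though it did with a replicate block added, while the other 5 genes passed. The remaining 14 hnRNP genes did not pass on the deposited values.

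The Sm and snRNP genes varied between replicates of E0771 rather than between groups. Their median change was −0.06 over 11 tested genes, with changes from −0.34 to 0.03 and overlap of the groups in all 11. With a sample left out the median ran from −0.20 (without shCtrl replicate 2 or shPTN replicate 1) to 0.06 (without shPTN replicate 2). The replicate 2 samples of both groups were the low ones: over these genes the median deviation from the gene mean was −0.22 in shCtrl replicate 2 and −0.27 in shPTN replicate 2, against −0.01 to 0.26 in the other 4 samples. Genes with main transcripts under 1000 nt deviated in those samples too, by −0.17 and −0.29, and by 0.29 in shPTN replicate 1, where the Sm and snRNP genes were highest (0.26).

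In E0771-LG cells, knockdown went with higher transcripts of every tested Sm and snRNP protein gene. With limma, 28 of 54 splicing factor genes passed, 24 higher and 4 lower, or 51.9% against 46.4% of all 10405 genes tested. The share that passed was close to the background, but its split was not: 44.4% of the splicing factor genes were higher against 24.3% of all genes, and 7.41% were lower against 22.1%. Their median change was 0.21, beside 0.05 for all genes, and the groups did not overlap for 32 of them (59.3%) against 57.1%. By role, 11 of 11 Sm and snRNP genes, 7 of 20 hnRNP genes, 3 of 9 SF3 genes, 2 of 12 SR genes and 1 of 2 U2AF genes were higher, and 0, 1, 1, 1 and 1 were lower. Without the Sm and snRNP genes, 13 of 43 were higher (30.2%) and 4 lower (9.3%). With shPTN replicate 2 left out, 14 of the 54 genes were higher and 2 lower. In that fit 31.1% of all genes were called (1620 higher, 1586 lower).

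**Figure D2:**
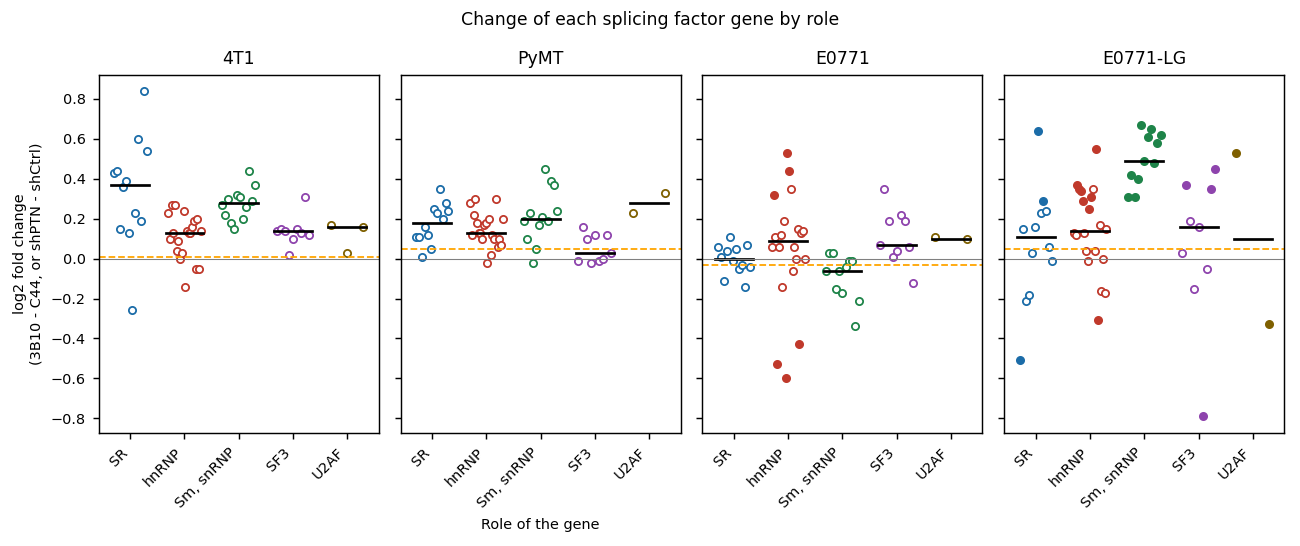
Each circle is a splicing factor gene, placed by role, with its log2 fold change on the vertical axis (3B10 minus C44 in the tumors, shPTN minus shCtrl in the cells). Filled circles have a limma adjusted p under 0.05, black bars are medians of a role and the dashed orange line is the median of all genes tested. The 11 Sm and snRNP genes are all filled in E0771-LG, with a median of 0.49, and none is filled in E0771.

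The Sm and snRNP genes rose by 0.31 to 0.67, with a median of 0.49. The largest change was that of Snrpc, which encodes the U1 snRNP protein that helps U1 pair with the start of the intron. Snrpc was at 6.87, 6.72 and 6.71 log2 CPM in shCtrl and at 7.37, 7.52 and 7.40 in shPTN, higher by 0.67 ± 0.10 (SE; limma adjusted p = 0.000381), a fold of 1.59. The ring subunit Snrpd3 was at 7.24, 7.43 and 7.62 against 8.19, 8.13 and 7.92 (0.65 ± 0.12, adjusted p = 0.00133). Snrpg, also of the ring, was at 6.03, 6.03 and 6.19 against 6.67, 6.80 and 6.65 (0.62 ± 0.10, adjusted p = 0.000684). In each of these genes the lowest shPTN sample lay above the highest shCtrl sample. The same held for the ring subunit Snrpd2, at 6.88, 7.33 and 7.43 in shCtrl and 7.74, 8.02 and 7.70 in shPTN (0.61 ± 0.15, adjusted p = 0.00764). The others were Snrpf (0.58), Snrpd1 (0.49), Snrpe (0.48) and Snrpb (0.31) of the ring, Snrpa (0.31) of U1, and Snrpa1 (0.42) and Snrpb2 (0.40) of U2. Snrpf overlaps Ccdc38, Snrpd3 overlaps Gucd1 and Snrpa overlaps BC024978 on the opposite strand, Snrpa1 overlaps Gm45213 on the same strand, and whether reads were counted by strand is not stated.

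**Figure D3:**
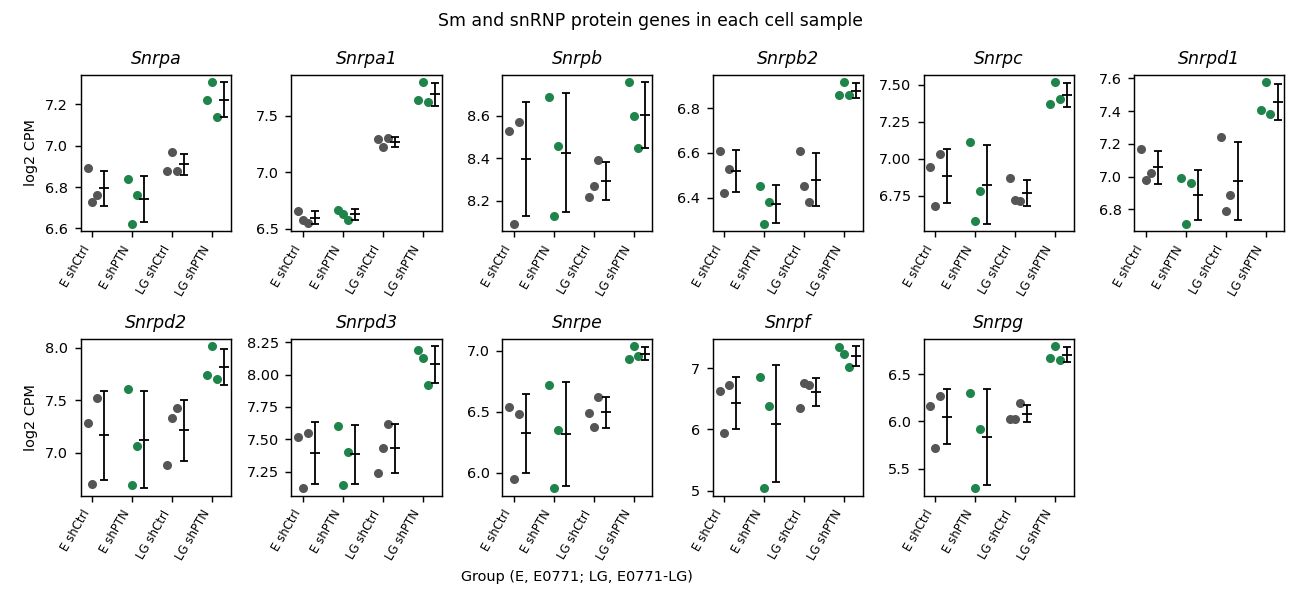
Each panel is a Sm or snRNP protein gene, with its log2 CPM on the vertical axis. Dots are samples (gray, shCtrl; green, shPTN; E, E0771; LG, E0771-LG), and the bar beside them is the mean with SD, n = 3. In E0771-LG every shPTN dot lies above every shCtrl dot in all 11 panels, while in E0771 the groups overlap.

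These are short transcripts, and in E0771-LG the change depended on transcript length across all genes. Of 623 genes with a main transcript under 1000 nt, 66.9% were higher with knockdown and 1.77% lower, with a median change of 0.60. The median was 0.35 for 1000 to 2000 nt, 0.05 for 2000 to 4000 nt, and −0.27 for 4000 nt or more, where 7.44% were higher and 41.4% lower. Short genes thus lay above long genes as a whole, not in the splicing factor genes alone. The main transcripts of the Sm and snRNP genes had a median of 1204.5 nt (503 to 3036), against 2963 nt for all genes, 2453 nt for SR genes and 2678.5 nt for hnRNP genes. In E0771 cells the corresponding medians by length were 0, −0.02, −0.02 and −0.06, so this order was absent there at that size.

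**Figure D4:**
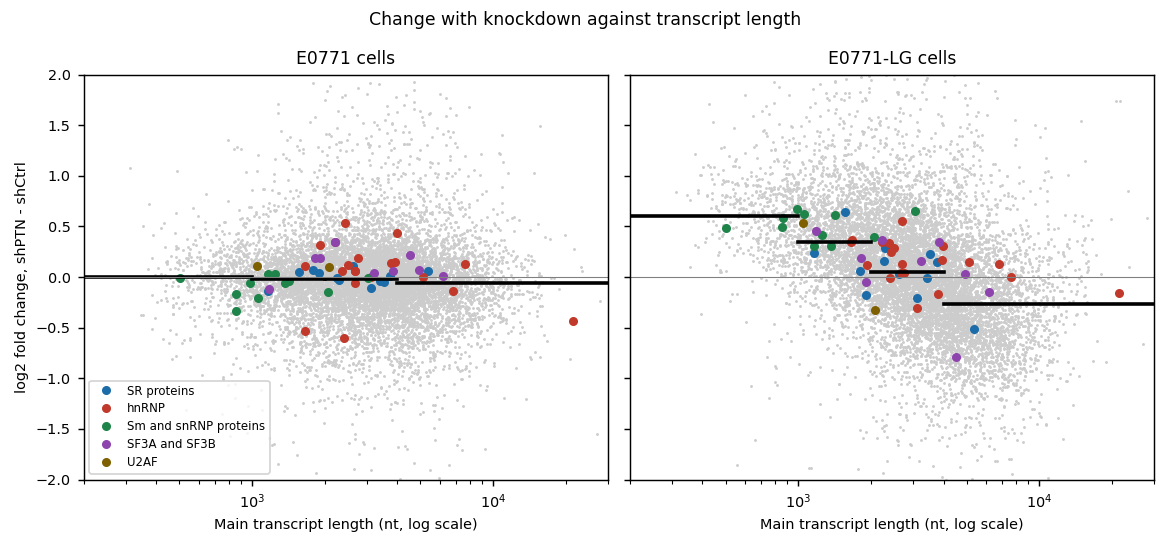
Each gray point is a gene, with the length of its main transcript on the horizontal log axis and its log2 fold change on the vertical axis; colored points are splicing factor genes by role, and black bars are medians of a length class. Genes beyond the vertical axis are not drawn. In E0771-LG the bars step down from 0.60 to −0.27, and most Sm and snRNP genes (green) lie on the left, some above and some below the bar of their length.

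When the changes that genes of like transcript length and GC content shared were removed, an alternative chosen after the data were seen, 15 of 54 splicing factor genes passed in E0771-LG, 11 higher and 4 lower, against 36.1% of all genes (1674 higher and 2078 lower), and their median change was 0.08 beside −0.02. Of the 28 genes called without the correction, 8 were called with it in the same direction: Snrpd3, Srsf5, Hnrnpl, Hnrnph2, Sf3b5, Hnrnpll, Sf3b3 and U2af2. Of the 11 Sm and snRNP genes only Snrpd3 passed, unchanged at 0.65 (limma adjusted p = 0.00257), while Snrpc was at 0.17 (0.199), Snrpg at 0.20 (0.142) and Snrpd2 at 0.27 (0.168). Called only with the correction were Hnrnpd, Hnrnpm, Hnrnpu, Hnrnpul2, Srsf6 and Srsf10, higher, and Srsf2, lower. The values of Snrpa, Snrpb and Snrpe changed sign, to −0.17, −0.23 and −0.12. The remaining Sm and snRNP genes lay between 0.02 (Snrpd1) and 0.22 (Snrpb2, adjusted p = 0.0732). The correction also takes away any change of the Sm and snRNP genes that other short genes share. Length and GC content were removed together, so the part of each was not tested. Whether short genes as a class rose in the cells or in the libraries was not tested.

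**Figure D5:**
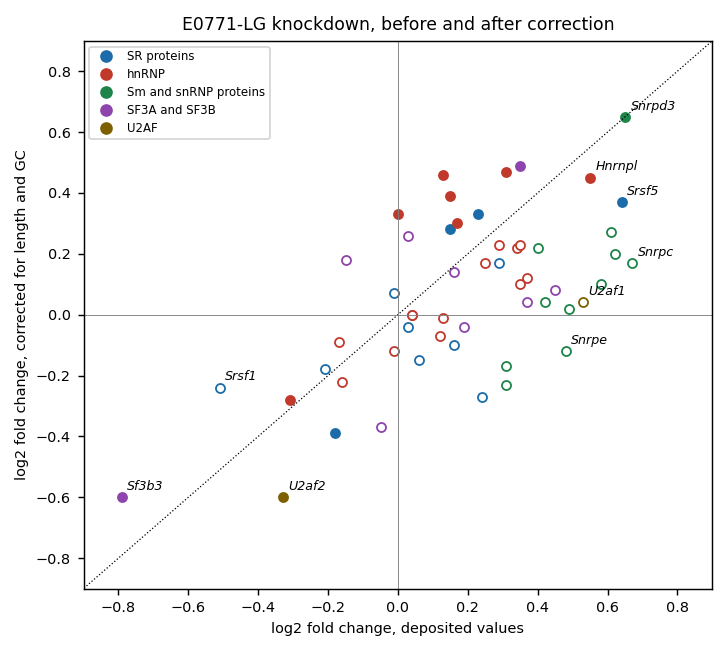
Each circle is a splicing factor gene in E0771-LG, with its log2 fold change from the deposited values on the horizontal axis and that after correction for transcript length and GC content on the vertical axis. Filled circles passed a limma adjusted p under 0.05 after correction, and the dotted line marks equal values. Snrpd3 stays on the line at 0.65, Sf3b3 lies at −0.60 after correction, and most Sm and snRNP genes (green) drop toward 0.

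Among SR proteins in E0771-LG, Srsf5 and Srsf7 rose and Srsf1 fell. Srsf5, an enhancer-binding SR protein, was at 6.51, 6.67 and 6.70 log2 CPM in shCtrl and at 7.41, 7.24 and 7.13 in shPTN, higher by 0.64 ± 0.11 (limma adjusted p = 0.000843) and by 0.37 after the correction (0.034). Srsf1, the founding member of the family, was at 9.28, 8.81 and 9.01 against 8.66, 8.39 and 8.50, lower by −0.51 ± 0.12 (adjusted p = 0.00636). The groups did not overlap for either gene, but Srsf1, whose main transcript has 5362 nt, was at −0.24 after the correction and no longer passed (0.176). Srsf7 was at 0.29 ± 0.10 (adjusted p = 0.0309) and at 0.17 after it (0.198). The other 9 SR genes, from −0.21 (Srsf11) to 0.24 (Srsf9), did not pass.

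Among hnRNPs, Hnrnpl rose most, and its paralog Hnrnpll, known for its role in lymphocyte splicing, fell. Hnrnpl was higher by 0.55 ± 0.09 (limma adjusted p = 0.000955) and by 0.45 after the correction (0.00363). Hnrnpll was at 7.55, 7.49 and 7.54 against 7.27, 7.09 and 7.29, lower by −0.31 ± 0.09 (adjusted p = 0.0181). These paralogs thus separated in opposite directions with no overlap of groups, although the call of Hnrnpll was lost without shCtrl replicate 3 (adjusted p = 0.0614) or shPTN replicate 2 (0.0944). The other hnRNP genes that rose were Hnrnpa2b1 (0.37), Hnrnpa3 (0.35), Hnrnpab (0.34), Hnrnph2 (0.31), Hnrnpc (0.29) and Hnrnph1 (0.25). The call of Hnrnph1 was lost when any of 5 of the 6 samples was left out, all but shCtrl replicate 1, with an adjusted p of 0.0577 to 0.0937.

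Sf3b3 showed the largest fall. It encodes a scaffold subunit of the SF3B complex of the U2 snRNP (ENSMUSG00000033732, chromosome 8, positions 110810239 to 110846787, GRCm38). Sf3b3 was at 9.53, 9.01 and 9.24 log2 CPM in shCtrl and at 8.64, 8.33 and 8.42 in shPTN, lower by −0.79 ± 0.13 (limma adjusted p = 0.000999), a fold of 0.577. The highest shPTN sample was below the lowest shCtrl sample, and after the correction the change was −0.60 (adjusted p = 0.0113). It overlaps Cog4 on the opposite strand, and small nucleolar RNA genes lie within it. Other subunits of the same complexes rose: Sf3b6 (0.45), Sf3a2 (0.37) and Sf3b5 (0.35), of which Sf3b5 passed after the correction (0.49, adjusted p = 0.00731).

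The subunits of U2AF moved apart. U2af2, the large subunit that binds the polypyrimidine tract, was at 8.44, 8.20 and 8.39 in shCtrl and at 8.18, 7.91 and 7.95 in shPTN, lower by −0.33 ± 0.11 (limma adjusted p = 0.0251). U2af1, the small subunit that contacts the AG at the intron end, was higher by 0.53 ± 0.12 (adjusted p = 0.00512). After the correction U2af2 was at −0.60 (adjusted p = 0.00562) and U2af1 at 0.04 (0.842). The U2af2 call was lost without shCtrl replicate 3 (adjusted p = 0.0816), shPTN replicate 2 (0.115) or shPTN replicate 3 (0.104).

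The Sm and snRNP genes moved together in E0771-LG, a rise that short genes shared as a class. Promoters of the splicing factor genes were read from RefSeq (GRCm38.p6, 250 bases before to 50 after the start). A part of promoter motifs in the rise was not tested. Of the 56 splicing factor genes, 49 had an entry; Hnrnpll, Hnrnpul2, Sf3b4, Sf3b5, Snrpb, Snrpd1 and U2af2 had none. Motifs were searched on both strands: CCGGAAG, a core read by ETS factors; CACGTG, the E-box; AAGATGGCG, a YY1 core; and GCATGCGC, part of the NRF1 site. CCGGAAG was found in 16 of 49 splicing factor genes (32.7%), against 20.5% of 9390 genes of the table with an entry. It was in 4 of 10 Sm and snRNP genes and in 12 of 39 other splicing factor genes (30.8%). The 10 include Snrpn, which failed the filter in E0771-LG. Counted per promoter, it was in 21 of 67 (31.3%), against 8.86% of all 32851 promoters. Those are not limited to genes of the table, so this background is unlike the 20.5% above. CACGTG was found in 12.2% of the splicing factor genes and 11.9% of the table, AAGATGGCG in 2.04% and 3.63%, and GCATGCGC in 8.16% and 5.97%. A match describes letters and is not a binding site. The promoters below are those of genes that rose and hold CCGGAAG (Snrpc, Snrpg and Snrpe, with Snrpb2 the other such Sm and snRNP gene), that rose and lack it (Snrpd3, shown for the 5 such matched Sm and snRNP genes, the others being Snrpa, Snrpa1, Snrpd2 and Snrpf) and that fell and hold it (Sf3b3), with matches in capitals; in Snrpe, matches on the opposite strands overlap.
Snrpc, chr17:27839837-27840136, plus strand: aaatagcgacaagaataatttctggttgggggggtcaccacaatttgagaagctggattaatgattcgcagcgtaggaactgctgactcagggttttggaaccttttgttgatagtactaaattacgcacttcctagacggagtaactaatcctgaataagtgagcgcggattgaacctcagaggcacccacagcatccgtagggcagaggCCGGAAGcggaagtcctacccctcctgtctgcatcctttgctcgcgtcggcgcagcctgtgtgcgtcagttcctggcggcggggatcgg
Snrpg, chr6:86371290-86371589, plus strand: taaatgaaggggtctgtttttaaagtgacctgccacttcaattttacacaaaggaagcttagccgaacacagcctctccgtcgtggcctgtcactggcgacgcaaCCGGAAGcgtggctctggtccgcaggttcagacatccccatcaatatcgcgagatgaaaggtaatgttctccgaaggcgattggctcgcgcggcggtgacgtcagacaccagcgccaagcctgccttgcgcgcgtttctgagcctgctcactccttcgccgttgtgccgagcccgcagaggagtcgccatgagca
Snrpe, chr1:133610231-133610530, minus strand: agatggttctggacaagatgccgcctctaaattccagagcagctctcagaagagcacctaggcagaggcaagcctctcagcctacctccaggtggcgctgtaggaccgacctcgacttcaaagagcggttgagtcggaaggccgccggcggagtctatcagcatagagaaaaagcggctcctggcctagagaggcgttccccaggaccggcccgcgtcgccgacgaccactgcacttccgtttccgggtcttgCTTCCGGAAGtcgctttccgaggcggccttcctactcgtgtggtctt
Snrpd3, chr10:75517792-75518091, plus strand: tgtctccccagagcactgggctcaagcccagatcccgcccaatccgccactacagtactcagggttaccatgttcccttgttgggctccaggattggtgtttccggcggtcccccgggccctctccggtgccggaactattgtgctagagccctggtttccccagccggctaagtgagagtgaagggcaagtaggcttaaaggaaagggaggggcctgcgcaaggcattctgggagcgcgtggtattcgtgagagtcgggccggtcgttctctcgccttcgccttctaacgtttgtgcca
Sf3b3, chr8:110846754-110847053, minus strand: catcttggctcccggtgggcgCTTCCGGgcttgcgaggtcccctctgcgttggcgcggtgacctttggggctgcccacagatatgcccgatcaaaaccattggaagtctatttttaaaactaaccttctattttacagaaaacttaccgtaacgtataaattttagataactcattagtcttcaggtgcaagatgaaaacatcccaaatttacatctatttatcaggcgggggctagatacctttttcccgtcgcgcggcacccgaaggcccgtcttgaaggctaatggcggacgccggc

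The lines were then compared directly. The change with knockdown differed between E0771-LG and E0771 for 14 of 54 splicing factor genes by the limma interaction test, or 25.9% against 34.7% of 10223 genes tested. Of these 14, 12 were more positive in E0771-LG and 2 more negative, while the 3550 genes called among all were 1917 and 1633. Those are 18.8% and 16% of all genes tested. Of the Sm and snRNP genes, 7 of 11 differed, a count that ran from 4 to 9 when a sample was left out. Sf3b3 had the largest difference: it was at 8.48, 8.19 and 8.24 log2 CPM in E0771 shCtrl and at 8.35, 8.68 and 8.53 in E0771 shPTN, groups that overlap, whereas it fell in E0771-LG (difference −1.01 ± 0.19, adjusted p = 0.00122). Hnrnpa3 fell in E0771 but rose in E0771-LG, where it was at 5.17, 5.29 and 5.25 in shCtrl and at 5.58, 5.64 and 5.56 in shPTN. Its groups did not overlap in either line, and the difference was 0.88 ± 0.14 (adjusted p = 0.000496). The rise in E0771-LG was weak: after the length and GC correction it was 0.10 (adjusted p = 0.483), and the call was lost without shCtrl replicate 3 (0.0579), shPTN replicate 2 (0.0766) or shPTN replicate 3 (0.0543).

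Snrpg and Snrpc also differed between the lines. In E0771 cells Snrpg was at 6.16, 5.72 and 6.27 in shCtrl and at 6.30, 5.29 and 5.92 in shPTN, and the difference between lines was 0.83 ± 0.29 (limma interaction adjusted p = 0.0423). Snrpc was at 6.94, 6.68 and 7.03 in E0771 shCtrl and at 7.11, 6.58 and 6.78 in E0771 shPTN, with a difference of 0.73 ± 0.18 (adjusted p = 0.00631). The E0771 groups overlapped for both genes, and the low values were those of replicate 2. Snrpg did not keep its call in 10 of the 12 fits that left out a sample. After the correction for length and GC content, 12 of 54 splicing factor genes differed between the lines, against 31.1% of all genes, with 5 more positive and 7 more negative in E0771-LG, and 1 of 11 Sm and snRNP genes. Sf3b3 (−0.84, adjusted p = 0.00699) and Hnrnpa3 (0.52, adjusted p = 0.011) passed there, and Snrpc (0.24, 0.148) and Snrpg (0.32, 0.218) did not.

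Of the 6 genes called in E0771, 3 were also called in E0771-LG. Of the 54 genes, 3 were called in both lines (5.56%, against 10.1% of all 10223 genes tested in both), 3 in E0771 alone (against 1073 of all genes), 25 in E0771-LG alone (46.3% against 36.3%) and 23 in neither (42.6% against 43.1%). Hnrnph1 and Hnrnph2 were higher in both. In E0771-LG, Hnrnph1 was at 8.15, 8.17 and 8.24 in shCtrl and at 8.48, 8.44 and 8.39 in shPTN, and Hnrnph2 was at 5.99, 6.08 and 6.21 against 6.42, 6.44 and 6.36. As in E0771, no shPTN value of either gene reached down to a shCtrl value. Hnrnph2 also passed after the correction in both lines (0.57 in E0771, 0.47 in E0771-LG), and Hnrnph1 in E0771 (0.62). The call of Hnrnph2 in E0771-LG was lost when shCtrl replicate 2 (adjusted p = 0.0507), shPTN replicate 1 (0.0599), shPTN replicate 2 (0.0933) or shPTN replicate 3 (0.0611) was left out. Hnrnpa3, called in both in opposite directions, is the remaining shared gene, with the weak call in E0771-LG described above.

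In 4T1 tumors, no splicing factor gene was called with 3B10, yet most values lay on the higher side. With limma, 0 of 56 genes passed, as did 0% of all 11467 genes tested; at an unadjusted p under 0.05 there were 10 of 56 (17.9%) against 6.27% of all genes. Of the 56 genes, 51 had a change above 0 (91.1%), against 51.6% of all genes. Their median was 0.17 beside 0.01 for all genes, and 0.11 beside −0.02 without 3B10 replicate 3. The groups did not overlap for 17 of them (30.4%) against 11.3% of all genes. The median was 0.37 for SR genes, 0.28 for Sm and snRNP genes, 0.16 for U2AF, 0.14 for SF3 and 0.13 for hnRNP genes. Over all genes the 4T1 medians from the shortest to the longest class of transcripts were 0.11, 0.08, 0.01 and −0.06, and after the length and GC correction the Sm and snRNP median was 0.20.

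The 4 genes with the smallest p were all SR genes. Tra2a, which binds purine-rich enhancers, was at 8.20, 7.81 and 8.03 with C44 and at 8.77, 8.84 and 8.95 with 3B10, a difference of 0.84 ± 0.13 (limma adjusted p = 0.375). Its paralog Tra2b was at 5.70, 5.49 and 5.66 against 6.04, 6.16 and 6.25 (0.54 ± 0.12, adjusted p = 0.706). Srsf7 was at 7.91, 7.47 and 7.77 against 8.14, 8.31 and 8.48 (0.60 ± 0.15, adjusted p = 0.722). The groups of these genes did not overlap, nor did those of Srsf3, at 7.05, 6.92 and 7.17 with C44 and 7.35, 7.38 and 7.57 with 3B10 (0.39 ± 0.12, adjusted p = 0.722). When all 24 samples shared an estimate of the spread, Tra2a (limma adjusted p = 0.00787) and Tra2b (0.0266) passed, as 2 of 6 genes in all. That spread is pooled with PyMT tumors and cultured cells, whose values lie on another scale. It does not measure the spread between 4T1 tumors alone. Srsf5 was on the lower side, at −0.26.

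Tumors are mixtures, and in bulk RNA fewer cells of a type and less RNA per cell cannot be told apart. In 4T1 tumors the 24 proliferation genes had a median change of 0.43, all above 0, and none passed with limma (8 at an unadjusted p under 0.05). Their summed values off the log scale were 1490, 1560 and 1120 with C44 and 1280, 2300 and 2290 with 3B10, and Pcna was the most abundant in C44 replicate 1, at 123. Per sample the proliferation genes deviated from their means by a median of −0.09, −0.03 and −0.54 with C44 and −0.33, 0.54 and 0.52 with 3B10, and the splicing factor genes by −0.10, −0.10 and −0.06 and by 0.01, 0.08 and 0.19. Leukocyte genes had a median of −0.58 over 22 tested genes, none above 0. Their sums were 16400, 13200 and 16500 with C44 and 8600, 12700 and 8290 with 3B10, and Lyz2 was the most abundant in every 4T1 sample, at 2560 to 8310.

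Skeletal muscle and adipocyte genes had a median of 2.43 over 8 tested genes in 4T1 tumors. They summed to 45, 66.7 and 103 with C44 and to 107, 270 and 449 with 3B10, a low level beside the leukocyte sums, and Tnni2, Fabp4, Acta1 or Tnnt3 led in different samples. Mammary epithelial genes, led by Krt18 in every sample, had a median of 0.45 over 11 tested genes and summed to 3500, 3910 and 3860 against 5420, 5160 and 5460. Fibroblast and endothelial genes, led by Col1a1, had a median of −0.02 and summed to 1400, 2010 and 1290 against 1060, 4230 and 1720. The part of these cell type and proliferation differences in the values of the splicing factor genes was not tested.

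In PyMT tumors no splicing factor gene was called either, and most values again lay above 0. With limma, 0 of 55 genes passed and 0% of all 11361; at an unadjusted p under 0.05 there were 2 of 55 (3.64%) against 2.7% of all genes, and limma with voom weights on recovered reads called 0 as well. Of the 55, 50 had a change above 0, with a median of 0.16 beside 0.05 for all genes, where 61% were above 0. Without C44 replicate 3 the median was 0.11 beside 0.05. By role it was 0.28 for U2AF, 0.2 for Sm and snRNP, 0.18 for SR, 0.13 for hnRNP and 0.03 for SF3 genes. The Sm gene Snrpd3 had the smallest p: it was at 6.29, 5.89 and 6.03 log2 CPM with C44 and at 6.58, 6.30 and 6.68 with 3B10 (0.45 ± 0.16, adjusted p = 1). U2af2 was at 7.66, 7.83 and 7.71 against 8, 8.09 and 8.12 (0.33 ± 0.12, adjusted p = 1). The groups did not overlap for either gene, and the margin of Snrpd3 was 6.29 against 6.30. Srsf7 was at 7.23, 7.21 and 6.85 against 7.55, 7.51 and 7.29 (0.35 ± 0.15), and Hnrnpa3 at 9.02, 9.21 and 9.07 against 9.35, 9.35 and 9.50 (0.30 ± 0.14), each with an adjusted p of 1. These groups did not overlap either, as for 10 of the 55 genes (18.2%) against 8.34% of all genes.

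In PyMT tumors the proliferation genes again lay on the higher side, with a median of 0.30 and 24 of 24 above 0. They summed to 1560, 1910 and 1740 CPM with C44 and to 2150, 2000 and 2010 with 3B10, and Mki67 or Top2a was the most abundant. The groups did not overlap in these sums, and their part in the values of the splicing factor genes was not tested. Leukocyte genes (median −0.01; 1160, 1090 and 839 CPM against 1370, 819 and 928), fibroblast and endothelial genes (median −0.15), mammary epithelial genes (median −0.07) and skeletal muscle and adipocyte genes (median −0.51) overlapped between groups in their sums. In the cell lines the proliferation genes had a median of 0.17 in E0771 (6 of 24 higher, 1 lower) and −0.01 in E0771-LG (5 higher, 4 lower).

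The cell line labels were compared with the marker lists as well; beside the counts below, 8.89% of all genes were higher and 11.7% lower in E0771, and 24.3% and 22.1% in E0771-LG. Krt8 was the most abundant epithelial gene in every cell sample, at 88.4 to 107 CPM in E0771 and 143 to 538 CPM in E0771-LG, but only 3 or 4 of 14 epithelial markers were at or above 1 CPM in any of these samples. All 4 tested epithelial genes rose with knockdown in E0771-LG (Krt18, Elf3, Krt8, Epcam), and 1 of 4 in E0771 (Trp63). Of the leukocyte genes 7 were tested in each line, with 4 higher in E0771 and 3 higher and 1 lower in E0771-LG. Of the fibroblast and endothelial genes, 5 of 5 were higher in E0771, and 1 was higher and 2 lower of 7 in E0771-LG. Of 3 tested muscle and adipocyte genes, 1 was higher in E0771 and 2 were lower in E0771-LG.

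Other genes of the splicing machinery changed in both directions in E0771-LG, where 24.3% of all genes were higher and 22.1% lower. The list values in this line are given without the correction for length and GC content. Of the LSm ring and Sm assembly genes, 8 of 23 were higher (34.8%) and 1 lower, with a median of 0.25, below that of the Sm and snRNP genes. Lsm5 (0.74), Lsm4 (0.69) and Gemin2 (0.68), of the LSm ring and of the SMN complex that loads Sm rings, changed most. Of the U1, U5 and tri-snRNP genes, 6 were higher and 4 lower among 20 entries, with Txnl4a listed more than once. Snrnp25 (1.15) and Snrnp35 (1.10), of the minor spliceosome, rose, and Prpf8 (−1.03), the large protein at the catalytic center, fell. Of 21 genes of the catalytic step 5 were higher and 6 lower, with the helicases Dhx8 (−0.69) and Dhx15 (−0.59) and the catalytic-center protein Rbm22 (−0.61) changed most.

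The regulators around the splicing factors were also divided in E0771-LG. Of 37 hnRNP-like and other RNA-binding genes 7 were higher and 12 lower, with a median of −0.13, led by Mbnl3 (−1.93) and Celf2 (−1.82), which regulate muscle and developmental exons, and by the cold-inducible Cirbp (1.65). Of 9 SR protein kinase and phosphatase genes 1 was higher and 3 lower: the kinase genes Clk3 (0.54) and Prpf4b (−0.45) and the phosphatase partner Ppp1r10 (−0.37) changed most. Of 17 other SR-related genes 2 were higher and 3 lower, with changes from −0.46 to 1.01 over all 17. Among them were Luc7l3 (0.50), a U1-associated protein, and the large speckle protein Son (−0.46). The branch point list had 3 higher and 4 lower of 14, with Puf60 (0.56) and Htatsf1 (0.54), and the nonsense-mediated decay list 3 higher and 2 lower of 15, with Pym1 (0.69) and Magoh (0.58). Beside these, 24.3% of all genes were higher and 22.1% lower.

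In E0771 cells, where 20.6% of all genes were called and 34.1% had an unadjusted p under 0.05, these lists held the following calls. The branch point list had 0 higher and 1 lower of 14, which was Dnajc8 (−1.29 ± 0.09, limma adjusted p = 1.49e-05). Of 35 RNA-binding genes 1 was higher, Mbnl1 (0.39), and 2 lower, Tia1 (−1) and Ptbp3 (−0.36). Of the tri-snRNP list 1 was higher, Ddx23 (0.46), and 1 lower, Snrnp40 (−0.65), and of the catalytic list 2 were lower, Isy1 (−0.55) and Dhx8 (−0.46). Bclaf1 (0.37) was the call among SR-related genes. No gene of the kinase, LSm or nonsense-mediated decay lists passed with limma, with 3, 3 and 1 at an unadjusted p under 0.05.

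The same lists held no limma call in either tumor model. In 4T1 tumors the LSm and Sm assembly genes had the highest median of them, 0.21, with 5 of 24 at an unadjusted p under 0.05. The other medians there were 0.15 for nonsense-mediated decay, 0.11 for tri-snRNP, 0.08 for SR-related, 0.07 for RNA-binding, 0.05 for branch point, 0.03 for catalytic and 0 for kinase genes, with 1, 2, 2, 3, 0, 0 and 0 genes at an unadjusted p under 0.05. In PyMT tumors the LSm and Sm assembly genes were at 0.19 and the others between 0.06 and 0.14, with 0 or 1 gene per list at an unadjusted p under 0.05.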

How the data were processed

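Per the labels and the study's methods, the authors aligned reads with HISAT2 (mm10, GRCm38), counted them with featureCounts and processed counts with edgeR and limma; versions are not given. The deposited values are log2 expression. Low values of 18 samples give whole reads (100% within 0.02), which 4T1 values do not. Genes with a value off the log scale of at least 1, above the sample's lowest, in at least 3 of 6 samples were tested by limma 3.58.1 (R 4.3.3, trend and robust) per experiment, with Benjamini-Hochberg adjustment over all genes and a threshold of 0.05. The interaction was fitted over both cell lines. The fits were tested on simulated data. Lengths and GC content are those of each gene's main GENCODE transcript. Members and lists were chosen with earlier results of these data known. Values per sample are given for up to 5 genes per direction and line with the largest change among called genes without overlap, the 4 with the smallest p per tumor model, the 4 with the largest called interaction and those called alike in both lines. Scaling, filters, pseudocount, variance model, voom weights on recovered reads, replicate block, left-out samples and a length and GC correction were alternatives. Figures used matplotlib.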

Additional observations from a re-analysis of the deposited data

Results flagged for a closer look

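The limma interaction test found 14 of 54 splicing factor genes whose change with Ptn knockdown differed between the lines (E0771-LG minus E0771, log2). That share, 25.9%, was below the 34.7% of all 10223 genes tested. Sf3b3 (−1.01) and Srsf1 (−0.57) were more negative in E0771-LG. More positive there were Hnrnpa3 (0.88), Hnrnpf (0.59) and Hnrnpl (0.49) among hnRNPs, Srsf5 (0.59) among SR proteins and Sf3b6 (0.57) among SF3B subunits. The Sm and snRNP genes were Snrpg (0.83), Snrpc (0.73), Snrpd3 (0.66), Snrpd1 (0.65), Snrpb2 (0.55), Snrpa1 (0.39) and Snrpa (0.37). Hnrnpa3 was called in opposite directions in the lines, but its E0771-LG call was lost after correction for length and GC content (0.10) and in 3 of 6 fits that left out a sample. Transcript length moved with the change in E0771-LG. After the joint correction for length and GC content, 1 of the 11 Sm and snRNP genes differed between the lines.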

How the results depend on the processing

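The 4T1 median was 0.11 to 0.24 and the PyMT median 0.11 to 0.18 with a sample left out. In 4T1 tumors the count of 0 became 2 in a fit of all 24 samples, where the spread is pooled with PyMT tumors and cells. It stayed 0 under every other alternative run, and in PyMT tumors it stayed 0 throughout. In E0771 cells, 5 genes were higher after the correction for GC content and transcript length, with and without the block, and 2 to 6 when a sample was left out (6 without shCtrl replicate 1). With a sample left out 3 were lower each time, and after the correction 2, or 3 with the block. Of all genes, 28.8% were called after the correction, 25.1% with the block added, and 11.2% to 20.7% with a sample left out. The median change of the 54 splicing factor genes in E0771 ran from −0.04 to 0.09 with a sample left out. Snrpc in E0771, at −0.06, was at 0.01 without shCtrl replicate 3 and 0.06 without shPTN replicate 2, and Snrpg, at −0.21, at 0.06 without shPTN replicate 2; without shPTN replicate 1 they were at −0.20 and −0.44. Neither was called.

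In E0771-LG cells an adjusted p under 0.01 left 17 genes (15 higher, 2 lower) and 29% of all genes (1515 higher, 1501 lower). The GC content and length correction, chosen after the data were seen, left 15 (11 higher), a median of 0.08 and 1 Sm or snRNP gene. After the correction 36.1% of all genes were called. Leaving out a sample gave 16 to 31 calls, 14 to 26 higher, 2 to 5 lower, 8 to 11 Sm and snRNP genes and a median of 0.17 to 0.26; without shPTN replicate 2 there were 16 (14 higher, 2 lower) and without shCtrl replicate 3, 17 higher and 2 lower. Of all genes, 31.1% (without shPTN replicate 2) to 49.3% (without shCtrl replicate 1) were called with a sample left out. Median-of-ratios scaling gave 21 higher and 5 lower, with 46.3% of all genes called. There Hnrnph1 lost its call (0.22, adjusted p = 0.0682), as it did without the trend (0.0604) and in the fit of all 24 samples (0.206); U2af2 lost its call without the trend (0.065) and Hnrnpll under quantile normalization (0.0794). The interaction count of 14 was 7 at an adjusted p under 0.01 and 10 to 19 with a sample left out. Its 7 Sm and snRNP genes became 4 to 9 with a sample left out. Of all genes, 18.2% differed at the stricter threshold and 25.6% to 37.8% with a sample left out.

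The labels do not say whether equal replicate numbers mark paired samples. Correlations of same-numbered deviations ran from −0.33 to 0.44. Replicate 2 correlated best with its own number in 4T1, E0771 and E0771-LG, and replicate 3 in PyMT, while the others did not. With 3 samples a group, this cannot settle whether samples were paired. With a replicate block, 7 genes were called in E0771 (4 higher), 28 in E0771-LG (24 higher, 4 lower) and 19 by interaction. Of those 19, 10 were Sm and snRNP genes. The shares of all genes were 23.6%, 48.2% and 36.5%. With the block and the GC and length correction, E0771 had 5 higher and 3 lower. E0771-LG had 16 called, 11 higher, a median of 0.08 and 1 Sm or snRNP gene. Of all genes, 25.1% were then called in E0771 and 39.5% in E0771-LG.

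The 4T1 depth is unknown, so no precision from read counts can be given there, and 3 samples a group limit every test.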
